A study of Mus musculus with 4 samples.

Results

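The replication-dependent histone genes examined here are the genes whose array name begins with Hist1h, Hist2h, Hist3h or Hist4h and whose probe was well above background on all 4 arrays. They were thus chosen by name and by a signal above background in every group, which leaves out genes that were near background in some groups only. By name 57 such genes were on the array, with 74 probes, and 49 of them met the background condition, among 18468 genes measured on all 4 arrays out of 36870 gene names. The members were 5 of 6 genes for linker histone H1, 15 of 18 for H2A, 11 of 14 for H2B, 9 of 9 for H3 and 9 of 10 for H4. By gene cluster, 36 were Hist1 genes on chromosome 13, 10 were Hist2 genes on chromosome 3, 2 were Hist3 genes on chromosome 11 and 1 was a Hist4 gene on chromosome 6.

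RAW264 is a mouse macrophage-like cell line of BALB/c origin. Its cells received siRNA against Tfe3 and Tfeb, transcription factors of lysosomal and autophagy genes, or siRNA against GFP as the control, and 48 h later were given 500 µM FeCl3 or none for 24 h. The 4 groups were siTfe3/Tfeb with iron, siTfe3/Tfeb without iron, siGFP with iron and siGFP without iron. Each was measured on 1 Agilent array with total RNA labelled in 1 colour, so no difference had a replicate check and none was tested.

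Replication-dependent histone genes supply the core histones H2A, H2B, H3 and H4 and the linker histone H1 that package newly made DNA, and their mRNAs build up in S phase. Mature mRNAs of these genes end in a short stem-loop bound by Slbp instead of a poly(A) tail, while some of the genes also give polyadenylated transcripts that run past the stem-loop, for instance in differentiating cells. Labelling kits of the family used here prime on poly(A) tails, and how much of the signal came from polyadenylated histone transcripts was not tested.

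The probes, 60 bases each, fell on different stretches of sequence, and the stretches that the results below turn on are shown first. The 16-base histone stem-loop was present in 7 probes of the whole array, all of them probes of members. The windows below, on mm9 coordinates given by the file headers, have the stem-loop in capitals.
Hist2h2aa1, probe at chr3:96049949-96050005, plus strand: aaaaaGGCTCTTTTCAGAGCCacccactga
Hist1h2bf, probe at chr13:23665629-23665688, minus strand: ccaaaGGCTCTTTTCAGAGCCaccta
Hist2h2bb, probe at chr3:96074056-96074115, plus strand: caaaaGGCTCTTTTCAGAGCCacttta
Hist1h3a, probe at chr13:23853756-23853815, minus strand: ccaaaGGCTCTTTTCAGAGCCaca
Hist1h3g, probe at chr13:23627719-23627778, plus strand: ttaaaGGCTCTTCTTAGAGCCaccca
Hist1h3i, probe at chr13:21874784-21874843, minus strand: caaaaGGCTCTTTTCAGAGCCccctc
Hist1h4m, probe at chr13:21903960-21904019, plus strand: ctaaaGGCCCTTTTCAGGGCCatccaa

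In 6 of these 7 genes the probe ended 3 to 6 bases after the stem-loop, close to where the mature mRNA ends. The Hist2h2aa1 probe was the exception and continued for 38 bases past it. Probes at other places are shown by windows of 30 bases, under the gene names of the array annotation. They were chosen after their values were seen because they carry the largest differences or the second probe of the same gene name. Capitals mark the letters AATAAA, the usual poly(A) signal. Exon and UTR positions of the probes were not analysed here.
Hist2h2be, probe at chr3:96027578-96027637, plus strand: gatcgAATAAAtccattcactgcatgtgca
Hist2h2bb, second probe at chr3:96082754-96082813, plus strand: gttgtcagtttgAATAAAgacagagaaact
Hist1h1c, second probe at chr13:23832018-23832077, plus strand: tacacttgctttgccttattttgatcagca
Hist1h1c, brighter probe at chr13:23831330-23831389, plus strand: aagaaggttgcagccaagaaaaagtaggct
Hist1h2bc, probe at chr13:23784254-23784313, plus strand: gctgcaaaattaagatgctcctagcaaaag
Hist2h3c2, probe at chr3:96042034-96042093, minus strand: agctgaaggctgagatctagcttacagctc
Hist1h4i, brighter probe at chr13:22132591-22132650, minus strand: gggaatcccaatagagccttctgcttggga
Hist1h4i, second probe at chr13:22133139-22133198, minus strand: ttcatcatgtctggtcgtggcaaaggagga

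Many H2A probes lie in coding sequence that is nearly the same in every H2A gene. The 4 probes below share 52 to 55 of 60 bases with each other, and capitals mark the bases of the last 3 that differ from the Hist1h2af probe.
Hist1h2af, chr13:23626113-23626172, plus strand: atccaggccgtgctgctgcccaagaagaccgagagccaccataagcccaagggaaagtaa
Hist1h2ak, chr13:21845304-21845363, minus strand: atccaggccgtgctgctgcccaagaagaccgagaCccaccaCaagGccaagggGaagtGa
Hist1h2an, chr13:21902669-21902728, plus strand: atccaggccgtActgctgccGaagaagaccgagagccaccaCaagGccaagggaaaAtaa
Hist2h2aa2, chr3:96043781-96043840, minus strand: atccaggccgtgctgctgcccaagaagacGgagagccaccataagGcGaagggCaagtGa

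For 16 of the 49 members the array annotation itself lists RefSeq accessions of 2 or more genes, 28 list 1 gene and 5 list no RefSeq accession. The annotation lists at most 4 accessions per probe. A value for a member is therefore the value of its probe, which can hold signal from closely related genes, and members with such probes are not separate measurements.

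A level below is given in log2 units relative to the array's own 75th percentile of the processed signal, which is 0 on this scale. The probe with the highest signal stands for a gene, and levels of different probes are not set against each other. Differences are signed log2 values, iron minus no iron or siTfe3/Tfeb minus siGFP, so that a negative value is lower with iron or with the Tfe3/Tfeb siRNA. The 75th percentile of the signal was 593, 636, 627 and 619 in siTfe3/Tfeb with iron, siTfe3/Tfeb without iron, siGFP with iron and siGFP without iron. No spot was saturated. The 300 probes spotted 10 times gave the SD of a log2 difference between single spots (spot SD). It was 0.06 above a level of 5, 0.11 at levels of -2 to 5, 0.26 at levels of -4 to -2 and 0.57 below -4. Most of these probes were bright, with 1051 combinations of probe and array above 5. Only 23 lay at 2 to 5, 14 at -2 to 2, 36 at -4 to -2 and 76 below -4. The spot SD covers the spread between spots, not that between cultures. Of macrophage markers on the array 9 of 10 were well above background on all 4 arrays, against 1 of 5 fibroblast, 0 of 4 epithelial, 2 of 4 T lymphocyte, 1 of 3 B lymphocyte and 1 of 3 endothelial markers.

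The targeted gene Tfe3 had levels of 3.63 and 3.60 in siTfe3/Tfeb cells with and without iron, against 4.17 and 4.33 in siGFP cells with and without iron, on its bright probe. It was lower with the siRNA in both iron states, by log2 differences of -0.55 with iron and -0.72 without iron (spot SD 0.11). The other target, Tfeb, had levels of -0.812 and -0.997 in siTfe3/Tfeb cells with and without iron, against -0.98 and -0.86 in siGFP cells. Its differences of 0.16 with iron and -0.14 without iron ran in opposite directions, so a lower Tfeb mRNA was not seen on its brightest probe. The dimmer Tfeb probes well above background on all 4 arrays differed by -0.14, -0.06 and -0.08 with iron. Without iron they differed by -0.18, -0.18 and 0.08. All of these values lay within the spot SD of their probe (0.26, 0.26 and 0.11).

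Most histone genes had their highest level in siTfe3/Tfeb cells without iron and a lower one after iron. Of the 49 members, 36 were highest in the siTfe3/Tfeb array without iron, against 29.9% of all genes. Iron treatment of siTfe3/Tfeb cells went with lower signal in 40 of 49 members, with a median log2 difference of -0.26, against -0.0033 over all genes, of which 50.5% were below 0. In siGFP cells 34 of 49 members were lower with iron, with a median of -0.06, against -0.03 over all genes and 55.1% of all genes below 0. The siTfe3/Tfeb cells without iron were above siGFP cells without iron in 40 of 49 members, with a median of 0.17, against -0.02 over all genes, of which 47.3% were above 0 and 52.7% below. With iron in both, 20 of 49 members were higher in siTfe3/Tfeb than in siGFP cells, with a median of -0.02, and 49.6% of all genes were above 0 and 50.4% below.

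The difference between the iron responses, siTfe3/Tfeb minus siGFP, was below 0 in 45 of 49 members, with a median of -0.21, against 47.6% of all genes below 0 and an all-gene median of 0.01. The comparisons of iron with no iron in siTfe3/Tfeb cells and of siTfe3/Tfeb with siGFP cells without iron share 1 array. That array, siTfe3/Tfeb without iron, also enters the difference of iron responses and the count of members highest in it. A deviation of that 1 array would appear in all of these, so they are not separate observations. Beyond 2 spot SDs in either direction lay 39 members for iron in siTfe3/Tfeb cells, against 32.8% of all genes, and 8 members for iron in siGFP cells, against 26.5%. For siTfe3/Tfeb against siGFP these counts were 9 members with iron, against 38.1% of all genes, and 30 members without iron, against 42.4%. The spot SD depends on the level, and members and all genes differ in their levels. In RNA from whole cultures, fewer cells in S phase and less histone RNA per cell cannot be told apart.

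**Figure D1:**
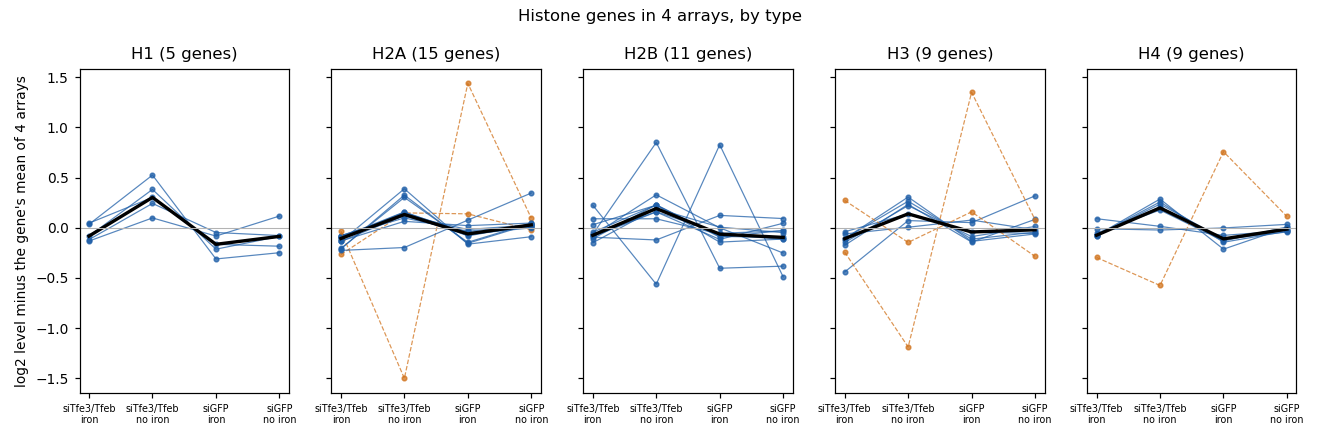
Levels of 49 histone genes, 1 panel per type; the x axis gives the 4 arrays and the y axis the log2 level minus the gene's mean over the 4 arrays. Thin lines are genes (blue solid, probe with a RefSeq accession; orange dashed, none) and the black line is the median, which peaks in siTfe3/Tfeb cells without iron in all 5 types.

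Few of the 49 members passed 2-fold, but 1 of 49 is already a larger share than each percentage of all genes given here. With iron in siTfe3/Tfeb cells 1 member was at least 2-fold higher and none lower, against 1.37% and 0.406% of all genes. With iron in siGFP cells 3 members were at least 2-fold higher and none lower, against 1.24% and 0.227% of all genes. For siTfe3/Tfeb against siGFP with iron, no member was 2-fold higher and 3 were lower, against 0.731% and 1.13% of all genes. Without iron, 1 member was 2-fold higher and 2 lower, against 1.28% and 1.61% of all genes. In the difference of iron responses no member passed 2-fold, where 0.303% of all genes did so upward and 0.412% downward. The members past 2-fold were Hist2h2aa1, Hist1h2bc, Hist2h2be, Hist2h3c2 and Hist1h4i, described under their types.

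**Figure D2:**
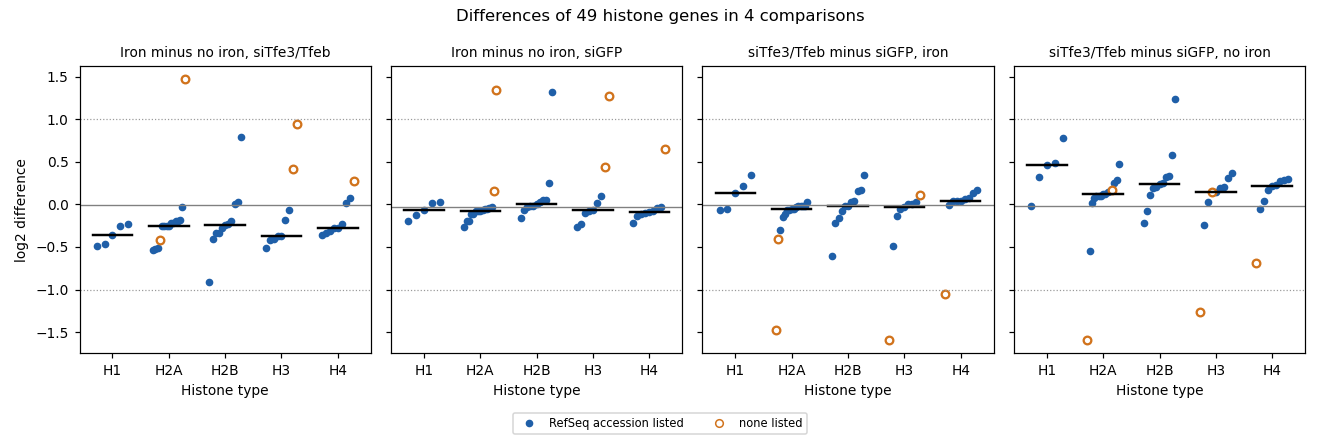
Log2 differences (y axis) of the 49 histone genes by type (x axis) in 4 comparisons; black bars are type medians, the grey line is the median of all genes and dotted lines mark 2-fold. Filled points have a probe with a RefSeq accession and open points have none. Most filled points sit close to their type median, and the lowest points of both panels of siTfe3/Tfeb minus siGFP are open.

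The counts by type below stand beside the shares of all genes. With iron, 50.5% of all genes were lower in siTfe3/Tfeb cells and 55.1% in siGFP cells. Between the siRNAs, 49.6% were higher in siTfe3/Tfeb cells with iron and 47.3% without iron. A count close to these shares is not a result about a type. Linker histones bind where DNA enters and leaves the nucleosome. All 5 H1 members were lower with iron in siTfe3/Tfeb cells, with a median of -0.36, and 3 of 5 in siGFP cells, with a median of -0.06. Hist1h1e, the brightest of them, had levels of 5.43 and 5.69 in siTfe3/Tfeb cells with and without iron, against 5.22 and 5.20 in siGFP cells with and without iron. Its siTfe3/Tfeb levels were both above its siGFP levels, by 0.21 with iron and 0.49 without iron (spot SD 0.06).

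Hist1h1c, the H1.2 gene, had levels of 2.80 and 3.29 in siTfe3/Tfeb cells with and without iron, against 2.46 and 2.52 in siGFP cells with and without iron. The siTfe3/Tfeb array without iron was the highest, and its excess of 0.77 over siGFP without iron was the largest of the H1 genes. With iron Hist1h1c was lower by -0.49 in siTfe3/Tfeb cells and by -0.06 in siGFP cells (spot SD 0.11). The Hist1h1b gene, for H1.5, stood apart, with levels of 4.54 and 4.77 in siTfe3/Tfeb cells and 4.59 and 4.79 in siGFP cells with and without iron. Its iron differences of -0.23 in siTfe3/Tfeb cells and -0.20 in siGFP cells were nearly equal, and it differed by -0.02 between the siRNAs without iron. Hist1h1a, for H1.1, differed with iron by -0.36 in siTfe3/Tfeb cells and by 0.03 in siGFP cells, the highest value of the H1 genes in siGFP cells.

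In the H2A type, 14 of 15 members were lower with iron in siTfe3/Tfeb cells (median -0.25) and 13 of 15 in siGFP cells (median -0.07). Between the siRNAs, 13 of 15 were higher in siTfe3/Tfeb cells without iron (median 0.12) and 1 of 15 with iron (median -0.06). The 4 coding probes shown above gave iron differences of -0.25 to -0.18 in siTfe3/Tfeb cells and of -0.08 to -0.03 in siGFP cells (spot SD 0.06). Hist1h2ah, the brightest H2A probe, whose annotation lists 4 H2A genes, had levels of 8.61 and 8.87 in siTfe3/Tfeb cells with and without iron, against 8.67 and 8.72 in siGFP cells. Only the siTfe3/Tfeb array without iron stood above the others by more than 2 spot SDs.

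Hist1h2ab and Hist1h2ai were also highest in siTfe3/Tfeb cells without iron, with larger iron differences in those cells. Hist1h2ab had levels of 6.61 and 7.13 in siTfe3/Tfeb cells with and without iron, against 6.58 and 6.66 in siGFP cells with and without iron. It was lower with iron by -0.52 in siTfe3/Tfeb cells and by -0.07 in siGFP cells, and its excess without iron, 0.48, was the highest of the H2A genes. For Hist1h2ai the iron differences were -0.54 in siTfe3/Tfeb cells and -0.19 in siGFP cells. Its probe, at chr13:21902706-21902779, overlaps in annotated position the probes of Hist1h2an and Hist1h2ao on the same strand. Those gave smaller iron differences of -0.25 and -0.26 in siTfe3/Tfeb cells, and of -0.06 and -0.11 in siGFP cells. Whether these probes read different transcripts was not tested.

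Hist2h2aa1, an H2A gene of the Hist2 cluster whose probe runs past the stem-loop, behaved in the opposite way. Its levels were 2.30 and 0.83 in siTfe3/Tfeb cells with and without iron, against 3.77 and 2.43 in siGFP cells with and without iron. Both iron arrays were above their untreated arrays, and siTfe3/Tfeb cells without iron were the lowest of the 4. With iron it was higher by 1.47 in siTfe3/Tfeb cells and by 1.34 in siGFP cells, and between the siRNAs it was lower by -1.47 with iron and by -1.60 without iron (spot SD 0.11). The coding probe of Hist2h2aa2 lists the RefSeq accessions of both H2ac18 and H2ac19, the current symbols of Hist2h2aa1 and Hist2h2aa2. On that probe the iron differences were -0.20 in siTfe3/Tfeb cells and -0.03 in siGFP cells, and the siTfe3/Tfeb differences were -0.15 with iron and 0.02 without iron.

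Of the stem-loop probes, the other 6 ranged with iron between -0.51 and 0.08 in siTfe3/Tfeb cells and between -0.27 and 0.10 in siGFP cells. The remaining H2A extremes lay at low levels. Hist2h2ab had levels of -2.96 and -2.93 in siTfe3/Tfeb cells with and without iron, against -2.66 and -2.39 in siGFP cells with and without iron, and its difference of -0.27 with iron in siGFP cells was close to its spot SD of 0.26. Hist1h2ae had the lowest difference of iron responses among H2A genes, -0.57, with iron differences of -0.41 in siTfe3/Tfeb cells and 0.16 in siGFP cells at the same spot SD.

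H2B pairs with H2A in the nucleosome. With iron, 8 of 11 H2B members were lower in siTfe3/Tfeb cells (median -0.24) and 5 of 11 in siGFP cells (median 0.01). Without iron 9 of 11 were higher in siTfe3/Tfeb than in siGFP cells (median 0.24). Hist2h2bb, the brightest H2B probe, had levels of 4.06 and 4.40 in siTfe3/Tfeb cells with and without iron, against 4.22 and 4.16 in siGFP cells with and without iron. Its highest value was again in siTfe3/Tfeb cells without iron and its lowest in siTfe3/Tfeb cells with iron.

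Hist2h2be was the one member at least 2-fold higher with the Tfe3/Tfeb siRNA. Its levels were 0.74 and 1.66 in siTfe3/Tfeb cells with and without iron, against 0.41 and 0.43 in siGFP cells with and without iron. The siTfe3/Tfeb array without iron stood apart and the 2 siGFP arrays differed by less than the spot SD. The siRNA differences were 0.34 with iron and 1.23 without iron, and the iron differences were -0.91 in siTfe3/Tfeb cells and -0.02 in siGFP cells (spot SD 0.11). Its second probe gave siRNA differences of 0.38 with iron and 1.06 without iron, and iron differences of -0.89 in siTfe3/Tfeb cells and -0.21 in siGFP cells. The difference of iron responses on the brighter probe, -0.89, was the lowest of all 49 members.

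Hist1h2bc was higher with iron. Its levels were 2.81 and 2.02 in siTfe3/Tfeb cells with and without iron, against 3.41 and 2.09 in siGFP cells with and without iron. The untreated arrays of both siRNAs were close, at a difference of -0.07, and both iron arrays were above them. The iron differences were 0.79 in siTfe3/Tfeb cells and 1.32 in siGFP cells, and siTfe3/Tfeb cells with iron were lower than siGFP cells with iron by -0.60 (spot SD 0.11). Its probe lists the RefSeq accession of H2bc4 and no other gene.

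Other H2B extremes were smaller. Hist1h2bn differed with iron by -0.24 in siTfe3/Tfeb cells and by -0.16 in siGFP cells, the lowest value of the H2B genes in siGFP cells. Hist1h2be, at a level of about -2.5, differed by 0.03 with iron under both siRNAs and by -0.22 with iron and -0.21 without iron between the siRNAs, within its spot SD of 0.26.

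H3 and H4 form the tetramer at the core of the nucleosome. Of the 9 H3 members, 7 were lower with iron in siTfe3/Tfeb cells (median -0.37). In siGFP cells 5 were lower (median -0.07), near the share of 55.1% of all genes. Without iron 7 were higher in siTfe3/Tfeb than in siGFP cells (median 0.15). Hist1h3d, the brightest H3 probe, had levels of 6.34 and 6.52 in siTfe3/Tfeb cells with and without iron, against 6.34 and 6.32 in siGFP cells with and without iron. Only the siTfe3/Tfeb array without iron stood out. Hist1h3f had the highest siRNA difference without iron in this type, 0.37, with 0.03 under iron. Hist1h3g, whose probe ends just after the stem-loop, was lower with iron by -0.51 in siTfe3/Tfeb cells and by -0.27 in siGFP cells (spot SD 0.11). It was lower with the Tfe3/Tfeb siRNA, by -0.49 with iron and by -0.25 without iron, where 7 of 9 H3 genes were higher.

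Hist2h3c2 had levels of -2.70 and -3.64 in siTfe3/Tfeb cells with and without iron, against -1.11 and -2.38 in siGFP cells with and without iron. Within each siRNA the iron array was the higher, and within each iron state the siGFP array was the higher, the same order as for Hist2h2aa1. The iron differences were 0.95 in siTfe3/Tfeb cells and 1.27 in siGFP cells, and the siRNA differences were -1.59 with iron and -1.27 without iron (spot SD 0.26). With normexp background correction its iron difference in siGFP cells was 0.93 and its siRNA difference without iron -0.75, both within 2-fold. Its second probe gave iron differences of 1.21 in siTfe3/Tfeb cells and 1.11 in siGFP cells. The probe of Hist2h3b, which lists H3c13, H3c14 and H3c15, the last being the current symbol of Hist2h3c2, gave -0.37 and -0.07 for the same 2 comparisons. Hist2h3c1 was higher with iron by 0.42 in siTfe3/Tfeb cells and by 0.44 in siGFP cells.

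Of the 9 H4 members, 6 were lower with iron in siTfe3/Tfeb cells (median -0.27) and 8 in siGFP cells (median -0.08), and 7 were higher in siTfe3/Tfeb cells without iron (median 0.21) and 7 with iron (median 0.04). Hist1h4d, the brightest, is one of the probes spotted 10 times. Its levels were 7.60 and 7.88 in siTfe3/Tfeb cells with and without iron, against 7.56 and 7.64 in siGFP cells with and without iron. Hist4h4, the single gene of the Hist4 cluster, had the highest siRNA difference without iron of this type, 0.29, and Hist1h4j the lowest iron differences, -0.36 in siTfe3/Tfeb cells and -0.22 in siGFP cells. Hist1h4m had the highest siRNA difference under iron, 0.17 (spot SD 0.11).

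Hist1h4i had levels of 0.62 and 0.34 in siTfe3/Tfeb cells with and without iron, against 1.68 and 1.03 in siGFP cells with and without iron. Both siTfe3/Tfeb arrays were below both siGFP arrays. The siRNA differences were -1.05 with iron and -0.69 without iron, and the iron differences were 0.28 in siTfe3/Tfeb cells and 0.65 in siGFP cells (spot SD 0.11). With median centring the siRNA difference with iron was -0.96, within 2-fold. Its second probe, which holds a start codon of the H4 coding sequence in its first bases, gave siRNA differences of -0.07 with iron and -0.08 without iron, and iron differences of -0.02 in siTfe3/Tfeb cells and -0.03 in siGFP cells.

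**Figure D3:**
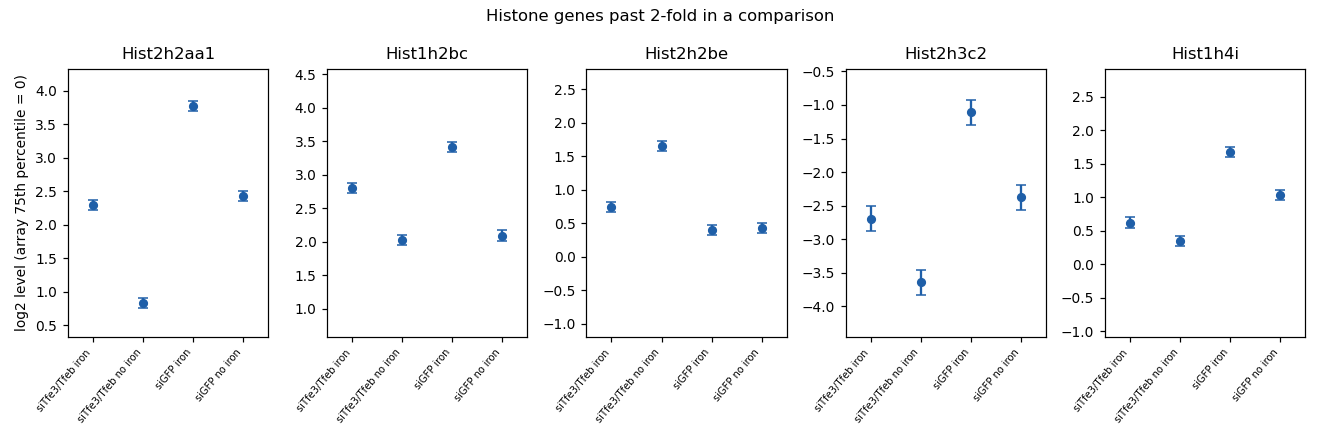
Log2 levels (y axis, 0 is the array's 75th percentile; every panel spans 4 log2 units) of the 5 histone genes past 2-fold in a comparison, in the 4 arrays (x axis); bars are the spot SD of a single level. Hist2h2aa1 and Hist2h3c2 are lowest in siTfe3/Tfeb cells without iron, while Hist2h2be is highest there.

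Of the 5 members past 2-fold, 3 belong to the 5 members whose probe lists no RefSeq accession (Hist1h2ae, Hist2h2aa1, Hist2h3c1, Hist2h3c2 and Hist1h4i). This division was made after the values were seen and is given as a description. Over all 59 histone probes well above background on all 4 arrays, the 10 without a RefSeq accession had a median iron difference of 0.35 in siTfe3/Tfeb cells, with 7 above 0, and of 0.77 in siGFP cells, with 9 above 0. The 49 with one had medians of -0.27, with 5 above 0, and -0.07, with 10 above 0. Between the siRNAs, the 10 had a median of -0.37 with iron and 0.15 without iron, against -0.02 and 0.21 for the 49.

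Second probes well above background on all 4 arrays were present for 10 members. In Hist1h1c, Hist1h2be, Hist2h2bb, Hist3h2a and Hist1h4i only a single probe lists a RefSeq accession. In these genes both kinds of probe can be compared under the same gene name. The second probe of Hist1h1c, downstream of the brighter one, lists no RefSeq accession and had levels of 2.21 and 1.38 in siTfe3/Tfeb cells with and without iron, against 2.30 and 0.89 in siGFP cells with and without iron. It was higher with iron by 0.82 in siTfe3/Tfeb cells and by 1.41 in siGFP cells, whereas the brighter probe gave -0.49 and -0.06. For Hist2h2bb the second probe, which holds AATAAA, was higher with iron by 0.24 in siTfe3/Tfeb cells and by 0.89 in siGFP cells, whereas the brighter probe, which ends just after the stem-loop, gave -0.34 and 0.06. In both genes the 2 probes thus differed by several times the spot SD of 0.11.

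Not every such pair followed that pattern. The second probe of Hist3h2a gave -0.81 in siTfe3/Tfeb cells and 0.01 in siGFP cells, and that of Hist1h2be gave -0.61 and -0.60. The 2 Hist1h2be probes start far apart, at chr13:23675610 and chr13:23710868, as do the Hist2h2bb probes shown above. Whether both probes of a pair read the same transcript was not tested. For the 4 genes in which both probes list RefSeq accessions (Hist1h2bb, Hist2h2be, Hist1h4d and Hist1h4k), the iron differences of both probes were below 0 in siTfe3/Tfeb cells. The letters AATAAA or ATTAAA occurred in 4 of the 59 histone probes and in 13.4% of all probes. Those 4 gave iron differences of -0.91 to 0.24 in siTfe3/Tfeb cells and -0.11 to 0.89 in siGFP cells, so they shared no direction.

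**Figure D4:**
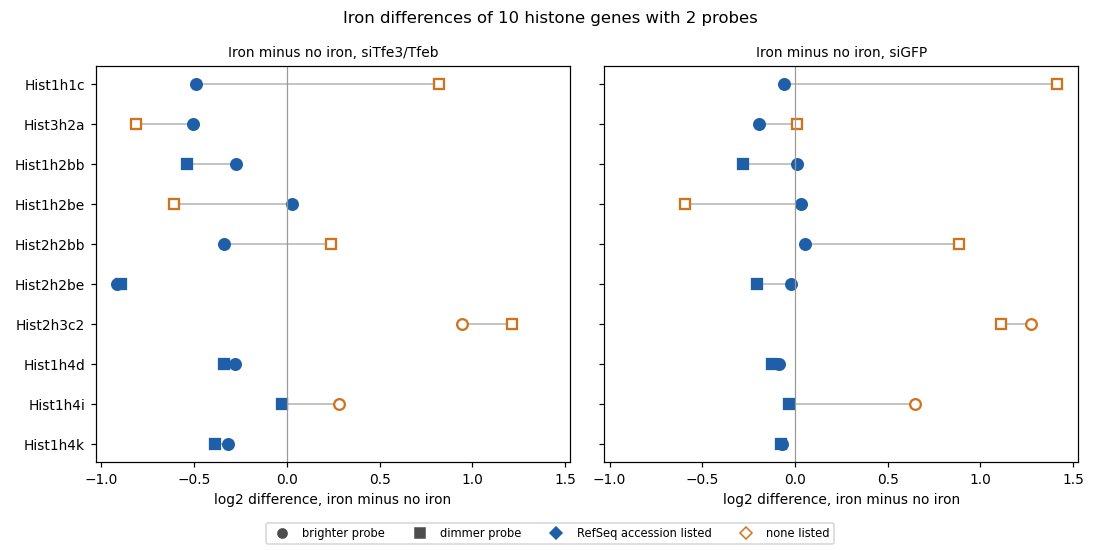
Log2 difference of iron minus no iron (x axis) for both probes of 10 histone genes (rows), in siTfe3/Tfeb cells (left) and siGFP cells (right). Circles are the brighter and squares the dimmer probe, filled where a RefSeq accession is listed; the open squares of Hist1h1c and Hist2h2bb lie right of 0 in both panels.

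The background condition left out 8 of 57 histone genes, and the genes next to it were as follows. Hist1h2bq, the dimmest member, had levels of -3.35 and -2.95 in siTfe3/Tfeb cells with and without iron, against -3.28 and -3.53 in siGFP cells with and without iron. Hist1h1t, the testis linker histone, was not well above background in siTfe3/Tfeb cells with iron and had levels of -4.82 and -3.76 in siTfe3/Tfeb cells with and without iron, against -3.49 and -3.14 in siGFP cells. Hist1h2bg was not well above background in siTfe3/Tfeb cells without iron, at -4.89, with -3.89 in siTfe3/Tfeb cells with iron, -3.21 in siGFP cells with iron and -3.88 in siGFP cells without iron.

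Hist1h2ac was well above background on the 2 iron arrays and on neither untreated array. Its levels were -3.30 and -5.92 in siTfe3/Tfeb cells with and without iron, against -4.36 and -6.36 in siGFP cells with and without iron. Against the lowest signal well above background, it was at least 3.17-fold higher with iron in siTfe3/Tfeb cells by its single values. In siGFP cells the same bound was 1.40-fold. There the level of -4.36 lay less than the spot SD of 0.57 above the lowest signal of the array without iron, -4.84. Its probe lists no RefSeq accession. Hist1h2bp and Hist3h2bb-ps were above background on 1 array each, and Hist1h2ad, Hist1h2al and Hist1h4a on none.

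Upstream sequence was available for 44 of the 49 members in RefSeq (GRCm38.p6), taken as the 250 bases before the annotated start, with motifs searched on both strands; none of the motif letters below contains another of these motifs. CCAAT, the letters of the CCAAT box, was present in 36 of 44 members (81.8%), against 33.8% of all 32851 promoters. By type it was present in 100% of the H1, H2A and H2B genes and in 5 of 7 H3 genes. In H4 it was present in 2 of 8 (25%), below the share of all promoters. Whether neighbouring histone genes share upstream bases, which would count the same match more than once, was not tested. TATAAA was present in 21 of 44 (47.7%), against 12.4%. The octamer ATTTGCAT, known as the binding sequence of Oct factors in H2B promoters, occurred in 10 of 44 (22.7%), against 1.6%, and those 10 were 6 H2A and 4 H2B genes. CACGTG, the core of the sites bound by TFE3 and TFEB, occurred in none of the 44, against 6.02% of all promoters, and TGACNNNGC, the core of the antioxidant response element, in 2 of 44, against 10.2%.

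The promoter of H2ac18 (Hist2h2aa1), the member with the largest iron difference, is shown with both CCAAT matches in capitals, the first of which reads on the other strand. Its 2 matches lie 55 and 26 bases before the start. The sequence is chr3:96245247-96245496 of GRCm38.p6, plus strand, from RefSeq.
H2ac18: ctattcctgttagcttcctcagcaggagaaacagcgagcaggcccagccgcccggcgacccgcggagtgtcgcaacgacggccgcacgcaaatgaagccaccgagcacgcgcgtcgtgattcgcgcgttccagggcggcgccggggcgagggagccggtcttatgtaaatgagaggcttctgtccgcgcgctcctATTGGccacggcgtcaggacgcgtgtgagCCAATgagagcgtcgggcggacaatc

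Lists of related genes were set beside the histone genes. With iron, 50.5% of all genes were lower in siTfe3/Tfeb cells and 55.1% in siGFP cells. In siTfe3/Tfeb against siGFP cells, 50.4% of all genes were lower with iron and 52.7% without iron. A count close to these shares is not a result about a list. Of 28 mitosis genes, 28 were lower with iron in siTfe3/Tfeb cells (median -0.44) and 27 in siGFP cells (median -0.18), while 22 were higher in siTfe3/Tfeb than in siGFP cells with iron (median 0.14) and 27 without iron (median 0.35). Nusap1, a spindle protein, had levels of 1.85 and 2.70 in siTfe3/Tfeb cells with and without iron, against 1.52 and 1.86 in siGFP cells with and without iron. The mitotic cyclin Ccnb2, the spindle motor Kif11 and the midzone protein Prc1 were also highest in siTfe3/Tfeb cells without iron, with siRNA differences without iron of 0.79, 0.54 and 0.71. The part of cell cycle state in the histone differences was not tested.

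DNA replication genes did not show that order. Of 37 genes, 27 were lower with iron in siTfe3/Tfeb cells (median -0.13) and 32 in siGFP cells (median -0.15), and 35 were lower in siTfe3/Tfeb than in siGFP cells with iron (median -0.25) and 34 without iron (median -0.26). Mcm4, a subunit of the replicative helicase, had levels of 3.48 and 3.44 in siTfe3/Tfeb cells with and without iron, against 4.11 and 4.22 in siGFP cells with and without iron. Rrm2, a ribonucleotide reductase subunit, was lower in siTfe3/Tfeb cells by -0.76 with iron and by -0.66 without iron. For the licensing factor Cdc6 the differences were -0.60 and -0.76, and for Orc1, a subunit of the origin recognition complex, -0.65 and -0.70. Between the siRNAs without iron, the median of the histone members was thus above 0 and that of the replication genes below it.

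Among factors of histone gene transcription and histone mRNA processing, 27 of 28 genes were measured, and 17 were lower with iron in siTfe3/Tfeb cells (median -0.07) and 18 in siGFP cells (median -0.07). Slbp, which binds the stem-loop, had levels of -0.51 and -0.45 in siTfe3/Tfeb cells with and without iron, against -0.16 and -0.12 in siGFP cells with and without iron. It was lower with the Tfe3/Tfeb siRNA in both iron states, by -0.34 with iron and -0.33 without iron, and differed with iron by -0.06 and -0.04, less than the spot SD of 0.11. Npat, the coactivator of histone genes, differed between the siRNAs by -0.07 with iron and 0.03 without iron, and with iron by -0.29 in siTfe3/Tfeb cells and -0.19 in siGFP cells. Srrt, a partner of the cap-binding complex, was lower in siTfe3/Tfeb cells by -0.67 with iron and -1.24 without iron. Zfp473, a zinc finger protein of the histone pre-mRNA processing complex, was higher by 0.90 with iron and 1.17 without iron. Hinfp, a factor of H4 genes, and E2f3 were lower in siTfe3/Tfeb cells without iron by -0.94 and -0.81.

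Replacement histone variants are made throughout the cell cycle, mostly from polyadenylated mRNAs. Of 12 genes, 7 were lower with iron in siTfe3/Tfeb cells (median -0.12) and 10 in siGFP cells (median -0.13), and 8 were higher in siTfe3/Tfeb than in siGFP cells with iron (median 0.17) and 8 without iron (median 0.12). H1f0, the linker variant of resting cells, had levels of -1.89 and -0.96 in siTfe3/Tfeb cells with and without iron, against -2.65 and -2.26 in siGFP cells with and without iron. Like most histone members it was highest in siTfe3/Tfeb cells without iron, with a siRNA difference of 1.30. H2afv, an H2A.Z gene, differed with iron by -0.95 in siTfe3/Tfeb cells and -0.72 in siGFP cells, and H2afx, the variant phosphorylated at DNA breaks, by -0.84 and -0.28. H2afy3, at a low level, differed by 0.99 and -0.16 (spot SD 0.26).

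Of 21 histone chaperones and importers, 15 were lower with iron in siTfe3/Tfeb cells (median -0.08) and 18 in siGFP cells (median -0.10), and 14 were lower in siTfe3/Tfeb than in siGFP cells with iron (median -0.05) and 15 without iron (median -0.20). Asf1a, a chaperone of H3 and H4, was higher in siTfe3/Tfeb than in siGFP cells by 0.34 with iron and 1.17 without iron, at a low level with a spot SD of 0.26. Daxx, a chaperone of H3.3, was lower by -0.35 with iron and -0.71 without iron. Rbbp7, a histone-binding subunit of several complexes, was lower by -0.21 and -0.50, and Anp32e, a chaperone of H2A.Z, by -0.22 and -0.49.

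**Figure D5:**
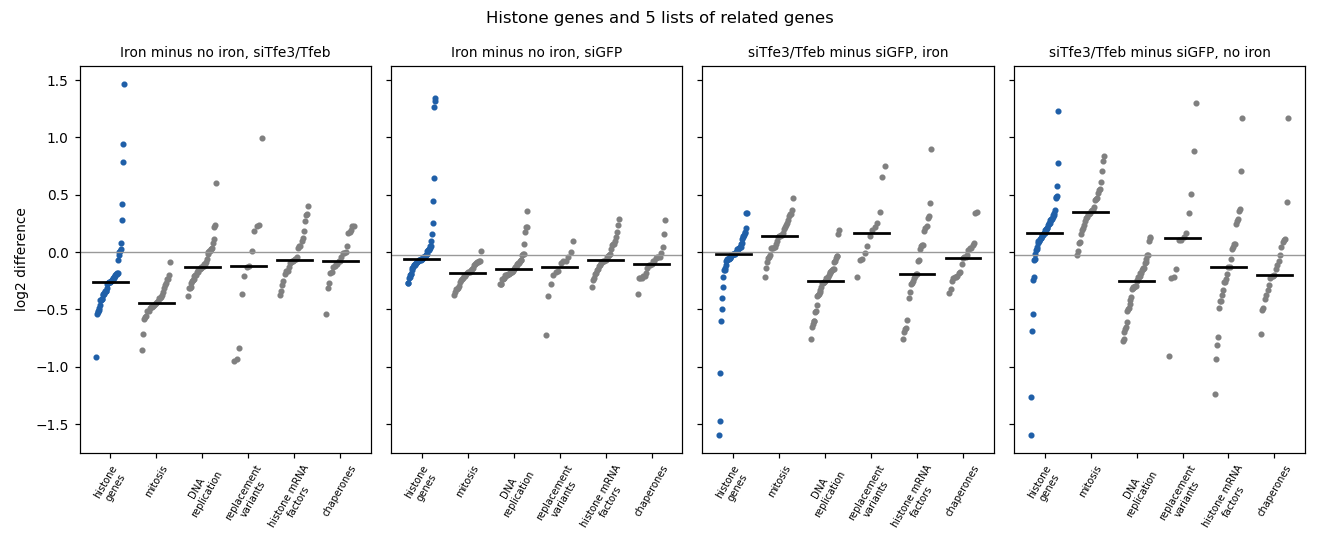
Log2 differences (y axis) of the 49 histone genes and of 5 lists of related genes (x axis) in 4 comparisons; each point is a gene, black bars are medians and the grey line is the median of all genes. In siTfe3/Tfeb against siGFP cells without iron the histone and mitosis medians are above 0 and the DNA replication median is below 0.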

How the data were processed

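The deposited scanner files hold spot intensity values of 4 one-colour Agilent arrays, extracted with Agilent Feature Extraction 12.0.3.1 per the submitters' processing notes. Per the file headers, the processed signal was made with spatial and multiplicative detrending switched on. Here it was divided by the array's 75th percentile over non-control spots, log2 was taken, and spots of a probe were averaged. Spots with an outlier flag (61 to 66 per array) were left out, and probes not well above background on all 4 arrays were not used for members. The deposited series matrix holds log2 values, per the authors' table, with each probe centred on its median of 0; differences between its columns matched those of the scanner files with a slope of 1, and it served as an alternative.

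Each group had 1 array, so differences were described by medians and by counts past 2-fold, beside the same over all 18468 genes, with no test. Members and lists were chosen with earlier results of these data known. The text names, for each type, the brightest member and the highest and lowest differences, all members past 2-fold, the genes next to the background condition, and in each related list up to 4 genes with the largest difference plus Slbp, Npat, Tfe3 and Tfeb. The steps were tested on simulated data. Alternatives were quantile normalization, median centring, normexp (offset 50) in limma 3.58.1 under R 4.3.3, the series matrix, the mean of probes, no filter and a level above -2. Other steps used Python 3.11.15 with pandas 2.3.3, numpy 2.4.6 and matplotlib 3.10.9. Symbols and promoters came from RefSeq tables; all 49 members matched a RefSeq symbol.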

Additional observations from a re-analysis of the deposited data

Results flagged for a closer look

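Some genes differed in opposite directions in the 2 siRNA groups or in the 2 iron states, each time by more than the spot SD. With 1 array per group none of these differences was tested. Between siTfe3/Tfeb and siGFP cells, Hist2h2ac differed by -0.12 with iron and 0.09 without iron, which are -0.21 apart, and Hist2h2bb by -0.16 and 0.24, which are -0.40 apart. The variant gene H2afx differed by -0.22 with iron and 0.34 without iron, which are -0.56 apart.

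With iron against no iron, Asf1a differed by -0.54 in siTfe3/Tfeb cells and 0.28 in siGFP cells, which are -0.83 apart. The other 4 genes ran the opposite way. Hinfp differed by 0.18 in siTfe3/Tfeb cells and -0.16 in siGFP cells (0.34 apart), Rbbp7 by 0.18 and -0.11 (0.29 apart) and Srrt by 0.33 and -0.25 (0.57 apart). On its brightest probe Tfeb differed by 0.19 in siTfe3/Tfeb cells and -0.12 in siGFP cells. The siRNA difference of that probe was 0.16 with iron and -0.14 without iron (0.30 apart in both views, which share the same 4 arrays). The dimmer Tfeb probes well above background on all 4 arrays were below 0 with iron under both siRNAs. They gave -0.03, -0.32 and -0.50 in siTfe3/Tfeb cells and -0.07, -0.16 and -0.62 in siGFP cells (spot SD 0.26, 0.11 and 0.26). The opposite directions were thus seen on the brightest Tfeb probe only.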

How the results depend on the processing

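The histone member medians and counts gave 150 values under 8 other settings and 2 more chosen after seeing the data. Those 2 were probes with a RefSeq accession only, and members whose probe lists 1 gene or none. Of the 150 values, 132 stayed and 18 counts moved. A median stayed if it shifted by less than the spot SD of 0.11, or a wider bound for the difference of responses. A count stayed if it was equal to the main count or within a small ratio of it. No main median reached 2-fold, so a change of direction past 2-fold could not occur. Over these alternatives the median ranged from -0.27 to -0.20 for iron in siTfe3/Tfeb cells, from -0.08 to -0.01 for iron in siGFP cells, from -0.06 to 0.08 for siTfe3/Tfeb with iron and from 0.15 to 0.20 without iron, and from -0.25 to -0.14 for the difference of iron responses. The median with iron between the siRNAs therefore has no settled sign. Without the background filter the counts of 2-fold higher genes were 3 for iron in siTfe3/Tfeb cells, 5 for iron in siGFP cells, 1 for siTfe3/Tfeb with iron, 2 without iron and 1 for the difference of responses, and of lower genes 2, none, 5, 4 and 3; the genes added are at background on at least 1 array. With probes that list a RefSeq accession, 0 genes were higher with iron in siTfe3/Tfeb cells and 1 in siGFP cells, and 0 were lower with the siRNA in either iron state, since Hist2h2aa1, Hist2h3c2 and the brighter Hist1h4i probe are left out. Median centring and the mean over probes each gave 2 genes higher with iron in siTfe3/Tfeb cells, Hist2h3c2 being the addition. Normexp, alone or with quantile normalization, and the stricter level filter gave 1 gene lower in siTfe3/Tfeb cells without iron, without Hist2h3c2. Under both normexp settings Hist2h3c2 was also within 2-fold for iron in siGFP cells (0.93 in each), and the stricter filter leaves it out. With iron, Hist1h4i was within 2-fold between the siRNAs under median centring (-0.96), normexp with quantile normalization (-0.98), the mean over probes (-0.56) and its RefSeq-listed probe (-0.07). Of 1277 values of types and related lists, 46 moved, and here too no main median reached 2-fold. No paired analysis was possible because each group has 1 array. Arrays without replicates limit every value, and below a level of -2 a spot SD of 0.26 or more hides small differences.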
